A study of Homo sapiens with 29 samples.

Results

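CCL-treated HepG2 cells were compared with untreated HepG2 cells after 24 h, on 5 of the 29 Affymetrix arrays of the series. The 5 arrays were chosen by their labels alone: 2 of CCL-treated cells, numbered set 1 and set 2, and 3 of untreated cells, numbered sets 1, 2 and 3. HepG2 is an established human liver tumour line that keeps many functions of hepatocytes, and CCL abbreviates Cratoxylum cochinchinense Lour, the herb named in the series title. The labels name no genetic change and give all cells the same seeding, and besides treatment the arms differ in their sets. The dose, the form of the herb, a vehicle for the untreated cells and the meaning of a set are not given in the sources used here. An effect of CCL, as written below, therefore cannot be told apart from that of a solvent or of handling. Nothing in the labels ties arrays to separate cultures, so the spread behind each p-value is that between arrays and may be technical. Precision is limited throughout by there being only 5 arrays. The remaining 24 arrays hold both arms at 6, 12, 18 and 48 h, and untreated cells at 0 h.

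Values are log2 expression per gene after quantile normalization of all 29 arrays, so that a difference of 1 is a doubling. Each array was first normalized by the submitters, and the median over all its probe sets as deposited was 2.83, 3.01 and 2.94 on the untreated arrays and 2.83 and 2.97 on the CCL arrays of sets 1 and 2. Of 14884 named genes, 6365 lay above log2 5 on at least 2 of the 29 arrays and were tested. Genes with an adjusted p under 0.05 by limma are described as called, as having risen or as having fallen. Of the tested genes, 377 were not above log2 5 on 2 untreated arrays and passed through CCL arrays, where they had to be high. Of these, 52 were called higher, among them ERN1, NDRG1, VNN1, PAQR5, MYOF and LAPTM5. Conversely, 249 tested genes were not above log2 5 on 2 CCL arrays and passed through untreated arrays, where they had to be high. They included 2 genes of the G1/S and DNA replication list below. The G2 and M phase, hepatocyte secreted protein and drug metabolism lists held 1 each. How many of the 249 were called lower was not counted. These counts were added after seeing the data. The error beside a change is the standard error (SE) of that fit, which pools each gene's spread over all 29 arrays. Of 17 HepG2 markers, 14 were measured and 13 lay above log2 5 on all 5 arrays. Their mean level was lower with CCL, at 9.33 and 9.42 against 9.61, 9.86 and 9.60, and FGG, TTR and FOXA2 among them fell. The markers did not all move this way. KRT18 lay above all untreated arrays on both CCL arrays, at 9.71 and 9.32 against 8.88, 9.10 and 8.81. Albumin (ALB) lay at 12.05 and 11.80 with CCL and at 11.81, 11.91 and 12.01 without, and alpha-fetoprotein (AFP), which this tumour line secretes, between 10.15 and 10.90. Of 11 endothelial and stellate cell markers 1, DES, passed the filter, and of 10 leukocyte markers measured 3 did. The mean level of the 10 leukocyte markers was 5.07 and 5.00 with CCL and 4.77, 4.74 and 4.74 without. Of the 10, CD68, LAPTM5, CD8A and TYROBP lay above all untreated arrays on both CCL arrays, and CSF1R and SPI1 below all of them. Of the 11 endothelial and stellate markers, LYVE1, DES, KDR and DCN lay above in the same way and RGS5 below. KDR and DCN did not exceed 2.60. Of all genes tested, 15.6% lay above and 12.2% below. CD8A lay at 5.32 and 4.72 against 4.41, 4.47 and 4.08. CD4, CSF1R and SPI1 were at most 4.11 on all 5 arrays, and the monocyte marker CD14 lay between 2.42 and 2.97.

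The sets differ in ways that CCL does not cover. Set 3 is present at 24 h in untreated cells only. In untreated cells at 6 h and 12 h, 71 genes were higher and 29 lower in set 3 than in the mean of sets 1 and 2 by more than 0.75. The mean level of the former minus that of the latter was -1.41, -1.04 and 0.50 on the 24 h untreated arrays of sets 1, 2 and 3, and -0.55 and -0.96 on the CCL arrays of sets 1 and 2. Chosen in the same way on CCL arrays of 6 h and 12 h, 62 and 42 genes gave -1.16, -0.83 and 0.61 on the untreated arrays, 0.19 on CCL set 1 and -0.61 on CCL set 2. The 18 h arrays, which did not choose these genes, gave -0.45, -0.79 and 0.54 with CCL in sets 1, 2 and 3. At 48 h, CCL sets 1 and 2 gave -0.55 and -0.03, and untreated sets 1, 2 and 3 gave -0.43, -0.23 and 0.52. By the second choice of genes, the CCL array of 24 h labelled set 1 lay between the set 1 and set 3 CCL arrays of 18 h, and CCL set 2 of 48 h did too. Each array is called by its label throughout, and why these arrays lay there was not tested.

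Liver tumour cells under stress or growth factor stimulation pass signals through the ERK kinases to immediate early genes, which encode short-lived transcription factors and feedback inhibitors, and cells short of amino acids or with misfolded proteins activate the integrated stress response through ATF4. NRF2 switches on antioxidant enzymes, zinc and other metals induce metallothioneins through MTF1, and SREBP factors drive the genes of cholesterol synthesis. Proliferation needs E2F-driven genes of DNA replication, followed by genes of mitosis that are repressed in resting cells through CHR elements. FOXA, GATA and ONECUT factors maintain the hepatocyte programme of secreted plasma proteins and of enzymes of drug and alcohol metabolism.

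Several gene lists below were drawn up by these programmes, and 4 promoters and 1 microRNA are printed as examples. Whether the elements marked in them took part in any change was not tested. The promoters are the 250 bases before the gene's start, from RefSeq on GRCh38.p14, 5′ to 3′ on the gene's strand. That of IL11 (chr19:55370464-55370713, minus strand) is shown for the gene with the greatest rise, with its 1 match to the AP-1 element TGANTCA in capitals, at 96 to 90 bases before the start. That of MT2A (chr16:56608334-56608583, plus strand) is shown for the metallothioneins, with its 7 matches to metal response elements, TGCACNC or TGCGCNC on either strand, in capitals. That of KIF11 (chr10:92592880-92593129, plus strand), a mitotic motor gene that fell, has its 1 match to the CHR element TTTGAA in capitals, at 28 to 23 bases before the start. That of MSMO1 (chr4:165327419-165327668, plus strand), a gene of cholesterol synthesis that fell, has 4 CCAAT boxes in capitals.
IL11: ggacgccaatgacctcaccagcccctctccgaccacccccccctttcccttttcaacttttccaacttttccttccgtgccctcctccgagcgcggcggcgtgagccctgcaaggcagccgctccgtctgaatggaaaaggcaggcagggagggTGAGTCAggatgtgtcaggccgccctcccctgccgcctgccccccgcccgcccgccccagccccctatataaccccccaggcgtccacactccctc
MT2A: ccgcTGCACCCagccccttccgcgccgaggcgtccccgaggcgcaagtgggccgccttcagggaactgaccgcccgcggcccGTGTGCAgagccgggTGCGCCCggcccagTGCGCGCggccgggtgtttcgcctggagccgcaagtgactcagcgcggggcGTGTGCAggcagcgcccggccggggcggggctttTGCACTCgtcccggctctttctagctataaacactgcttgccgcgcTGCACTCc
KIF11: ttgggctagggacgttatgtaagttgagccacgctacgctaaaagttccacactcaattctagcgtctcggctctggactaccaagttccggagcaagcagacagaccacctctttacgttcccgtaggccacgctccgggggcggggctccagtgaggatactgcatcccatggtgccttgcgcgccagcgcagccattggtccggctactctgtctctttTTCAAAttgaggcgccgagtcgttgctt
MSMO1: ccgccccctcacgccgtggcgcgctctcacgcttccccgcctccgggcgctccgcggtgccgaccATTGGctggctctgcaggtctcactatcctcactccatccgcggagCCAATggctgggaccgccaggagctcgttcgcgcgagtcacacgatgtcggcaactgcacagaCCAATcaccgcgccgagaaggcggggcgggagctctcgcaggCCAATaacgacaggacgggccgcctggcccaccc
The hairpin gene MIR3189 lies at chr19:18386562-18386634, within the limits of GDF15 (chr19:18386158-18389176), and both were among the genes that rose. Its mature arms, at chr19:18386570-18386594 and chr19:18386607-18386627 on the plus strand, are printed with the seed, bases 2 to 8, in capitals, and the 2 seeds differ.
hsa-miR-3189-5p: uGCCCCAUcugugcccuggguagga
hsa-miR-3189-3p: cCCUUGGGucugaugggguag

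At 24 h, the genes that rose with CCL included cytokine, immediate early, metallothionein and lysosome genes, and those that fell included genes of liver transcription factors, alcohol and drug metabolism, cholesterol synthesis and DNA replication. Of 6365 genes, 294 rose (4.62%) and 165 fell (2.59%), together 459 (7.21%). The calls in each list below stand against these shares. The share higher among called genes was 64.1%, against 84.3% on the deposited values (166 higher, 31 lower), 79.8% after centring each array on its median (257 and 65) and 9 of 11 when the 5 arrays were fitted alone. The 2 scalings thus moved the balance of the calls, although the median log2 fold change over all genes was 0.005 after quantile normalization and 0.038 as deposited. The change exceeded 1 on the log2 scale for 156 of the called genes that rose and 78 that fell. The CCL and untreated arrays did not overlap for 452 of the 459. Called or not, both CCL arrays lay above all untreated arrays for 996 genes (15.6%) and below all of them for 775 (12.2%).

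The 2 CCL arrays differed in the size of their response. The difference of CCL set 1 from the mean of the untreated arrays exceeded 1 upwards for 365 genes and downwards for 453, and that of CCL set 2 for 133 and 34. The standard deviation of these differences over genes was 0.696 for set 1 and 0.402 for set 2. Set 1 lay above all untreated arrays for 1962 genes (30.8%) and below for 2097 (32.9%), and set 2 for 1577 (24.8%) and 1175 (18.5%). Among genes called higher, the median difference was 1.25 on set 1 and 0.85 on set 2. Among genes called lower it was -1.36 and -0.63. Set 1 was the further from untreated cells for 243 of the 294 genes that rose and 152 of the 165 that fell, and set 1 had more than 2 times the difference of set 2 for 55 and 89 of them. The asymmetry between the arrays was thus greater downwards. The calls use both arrays, so these medians describe the called genes and test nothing.

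With CCL set 1 left out, limma called 29 genes higher and 1 lower, and with CCL set 2 left out 495 higher and 505 lower. Of the 459 calls, 29 were also made without set 1 and 413 without set 2. Without untreated set 2 the calls were 201 and 76, and fitted alone the 5 arrays gave 11. A core of 29 genes, 28 higher and 1 lower, was called whichever of the 5 arrays was left out. Besides IL11, UCA1, IGFBP1, VNN1, GPAT3, PAQR5, CD109, EREG, GDF15, SNAI2, AXL, JAG1, STC2 and SAT1, whose values follow, it held genes that are named here after their values were seen. PPARG, encoding the lipid-sensing nuclear receptor, lay at 5.91 and 5.72 with CCL against 3.67, 4.54 and 4.69. IL6R, encoding the receptor subunit that binds interleukin-6, lay at 7.49 and 7.76 against 6.42, 5.12 and 6.33. SFN, encoding 14-3-3 sigma, lay at 9.60 and 8.41 against 6.69, 6.77 and 7.09. For all 3, both CCL arrays lay above every untreated array. REEP6 was the 1 gene of the core that fell, at 6.41 and 6.61 against 7.92, 8.09 and 7.63. PAQR5 lay at 7.54 and 6.42 with CCL against 4.13, 3.56 and 4.56. Within the core, PAQR5, VNN1, EREG and SNAI2 were among the genes that passed the filter through CCL arrays, where they had to be high.

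**Figure D1:**
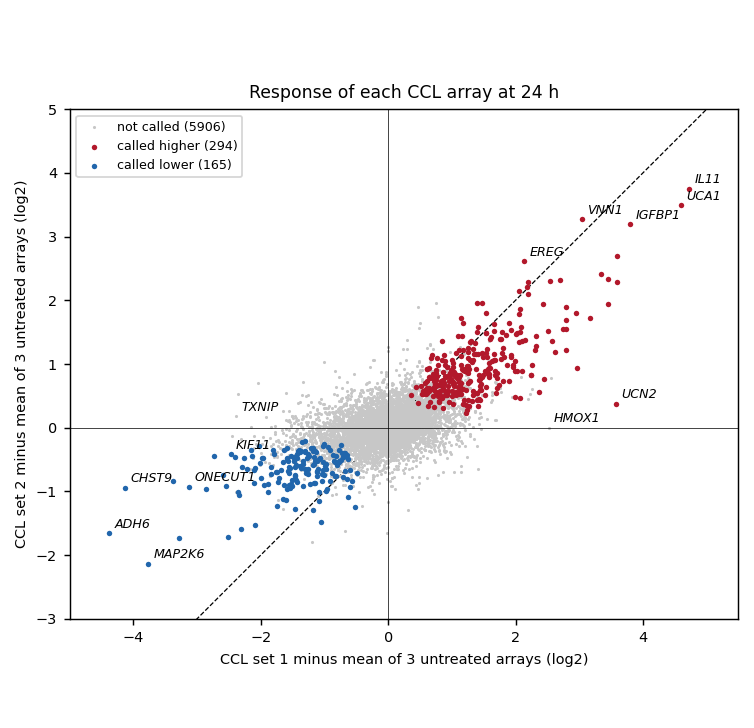
Each point is 1 of 6365 genes, plotted by its difference from the mean of the 3 untreated arrays (log2) on CCL set 1 (horizontal axis) and on CCL set 2 (vertical axis). The dashed line marks equal differences, red points are the 294 genes called higher and blue points the 165 called lower. Points stretch further along the horizontal axis, most of all below 0, where set 1 has 453 genes under -1 and set 2 has 34.

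IL11, encoding a cytokine of the interleukin-6 family, had the greatest rise of all. It lay at 9.72 and 8.75 on the CCL arrays of sets 1 and 2 and at 4.63, 4.59 and 5.78 on the untreated arrays of sets 1, 2 and 3. Both CCL arrays stood nearly 3 or more log2 units above the highest untreated array. The log2 fold change was 4.24 ± 0.36 (SE, 2 CCL and 3 untreated arrays, adjusted p = 1.07e-07 by limma), or 18.9-fold. UCA1, a long non-coding RNA gene at chr19:15828947-15836321 first described in bladder cancer, lay at 8.89 and 7.78 with CCL and at 4.54, 3.30 and 5.02 without. Its change was 4.05 ± 0.53 (adjusted p = 0.000109), while a second, dimmer probe set of UCA1 gave 0.94. IGFBP1, encoding a liver-secreted binding protein of insulin-like growth factors, lay at 10.90 and 10.30 against 6.51, 6.35 and 8.44. It rose by 3.50 ± 0.48 (adjusted p = 0.000132), and untreated set 3 was the highest of the untreated arrays, as it was for IL11 and UCA1.

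Other cytokine genes rose with IL11. LIF, a second member of the interleukin-6 family, lay at 7.75 and 6.24 with CCL and at 3.83, 3.91 and 5.16 without. GDF15, a stress-induced cytokine, lay at 11.80 and 10.90 against 8.79, 8.91 and 9.33 and rose by 2.34 ± 0.27 (adjusted p = 2.1e-05). CCL20, a chemokine gene unrelated to the herb's abbreviation, lay at 9.94 and 9.74 against 7.22, 8.24 and 8.16. With CSF1 (1.19 ± 0.35), these made 5 called members of 14 cytokine and growth factor genes tested, none lower, and the list's median change was 0.79 against 0.005 over all genes. LIF and 3 uncalled members passed the filter through CCL arrays, and 4 of the other 10 rose, with a median of 0.86. The list's median was 1.05 on CCL set 1 and 0.49 on set 2, and IL11 and GDF15 were the 2 called without set 1. MIR3189, in GDF15, rose from 5.32, 2.98 and 4.24 to 7.77 and 6.87. The array labels total RNA, so the hairpin's signal and that of GDF15 transcripts cannot be told apart here. MIR3189 was the 1 gene called of 122 microRNA genes tested.

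Of 27 immediate early and ERK output genes tested, 14 rose and none fell, with a median change of 0.88. FOS, FOSB, IER5, ATF3, DUSP5 and EREG passed the filter through CCL arrays, and 11 of the other 21 rose, with a median of 0.87. The medians of the 27 were close on the CCL arrays, 0.98 on set 1 and 0.85 on set 2, and 21 and 20 members lay above all untreated arrays, against 30.8% and 24.8% of all genes. DUSP5, encoding a nuclear phosphatase that inactivates ERK, lay at 7.004 and 6.067 with CCL and at 3.31, 3.40 and 4.26 without, a change of 2.88 ± 0.52, although a dimmer probe set gave 0.05. EREG, encoding the growth factor epiregulin, lay at 6.03 and 6.50 against 3.11, 3.62 and 4.94. FOSL1, an AP-1 subunit, lay at 7.09 and 7.57 against 5.34, 5.12 and 6.37. SPRY4, encoding a feedback inhibitor of receptor tyrosine kinase signalling, lay at 8.86 and 8.03 against 6.57, 6.62 and 7.58. For EREG and FOSL1 set 2 was the higher of the CCL arrays, unlike for most genes that rose. JUN, the partner of FOSL1 in AP-1, rose by 1.18, KLF6 by 1.30, and the stress-survival gene IER3 by 1.48 ± 0.30, with other IER3 probe sets between 0.968 and 1.503. MYC (0.35, adjusted p = 0.402) and ATF3 (1.07, adjusted p = 0.221) were not called. EREG was the 1 call of the list without CCL set 1, and 12 members were called higher and 2 lower without set 2. On the deposited values 9 were called.

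Some metallothionein genes and some genes of the response to oxidative stress rose. Of all genes tested, 4.62% rose and 2.59% fell. Of 5 metallothionein and zinc export genes tested, 3 rose and none fell. MT2A lay at 9.57 and 9.63 with CCL and at 8.51, 7.57 and 8.80 without, MT1X rose by 1.25 and MT1E by 1.46. These proteins are near copies of one another, so that probes may share signal. Of 12 NRF2 targets tested, 4 rose and none fell, with a median of 0.90 on CCL set 1 and 0.13 on set 2. SRXN1, encoding sulfiredoxin, lay at 9.41 and 8.34 against 7.45, 7.74 and 7.81, and TXNRD1, encoding thioredoxin reductase, at 7.84 and 6.82 against 6.43, 6.02 and 6.72. MAFG, a small MAF partner of NRF2, lay at 6.03 and 6.08 against 4.85, 4.97 and 5.25. SQSTM1, encoding the autophagy receptor p62, rose by 1.21. Neither these 4 NRF2 targets nor the metallothioneins were called without CCL set 1. HMOX1, encoding the haem-degrading enzyme haem oxygenase 1, was not called (adjusted p = 0.471). It lay at 9.02 on CCL set 1, and at 6.50 on CCL set 2 within the untreated values of 5.85, 6.76 and 6.90. TXNIP, encoding an inhibitor of thioredoxin, showed the opposite, at 3.78 on set 1, and at 6.35 on set 2 within the untreated values of 6.60, 6.33 and 5.57 (adjusted p = 0.451).

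Of 17 targets of ATF4 and CHOP tested, STC2 and GDF15 rose and PSPH fell. STC2, encoding stanniocalcin 2, lay at 7.66 and 7.29 with CCL and at 5.57, 5.79 and 6.35 without, and PSPH, encoding the last enzyme of serine synthesis, at 6.90 and 6.82 against 7.40, 7.58 and 7.48. The list's median was 0.78 on set 1 and 0.25 on set 2. Of 17 aminoacyl-tRNA synthetase genes, which charge tRNAs with amino acids, SARS1 (0.79), CARS1 (0.79) and MARS1 (0.60) rose and none fell. None of these 3 was called without CCL set 1 or on the deposited values. Of 12 genes of chaperones and the unfolded protein response, 1 was called, ERN1, encoding the stress sensor IRE1, at 5.52 and 5.51 against 3.57, 4.38 and 4.85. Of 9 heat shock genes 1 was called, HSPH1 (0.82). Of 11 p53 targets 1 was called, PLK3 (1.103), and of 10 hypoxia targets 1, NDRG1, at 5.75 and 5.35 against 3.74, 3.52 and 4.43. VEGFA, also a hypoxia target, changed by 0.81 and was not called. Of all genes tested, 4.62% rose and 2.59% fell, so single calls in such short lists are not read as results about the lists.

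Of 29 autophagy and lysosome genes tested, 7 rose and none fell, against 4.62% and 2.59% of all genes. The list's median was 0.63 on CCL set 1 and 0.26 on set 2. CD68, encoding a lysosomal membrane glycoprotein, lay at 10.01 and 9.31 with CCL and at 7.95, 8.45 and 8.19 without. CTSB, encoding cathepsin B, lay at 7.31 and 5.71 against 4.91, 5.35 and 5.48, and LAPTM5, encoding a lysosomal transmembrane protein, at 4.83 and 5.33 against 3.60, 3.93 and 4.40. CD68 and LAPTM5 are also on the leukocyte list, whose mean levels are given above. LYZ, the remaining leukocyte marker above the filter, did not pass the test and lay between 10.30 and 10.70 on all 5 arrays. The part of other cells in these values was not tested. No member of the lysosome list was called without CCL set 1, and 9 were without set 2. On the deposited values 4 were called.

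**Figure D2:**
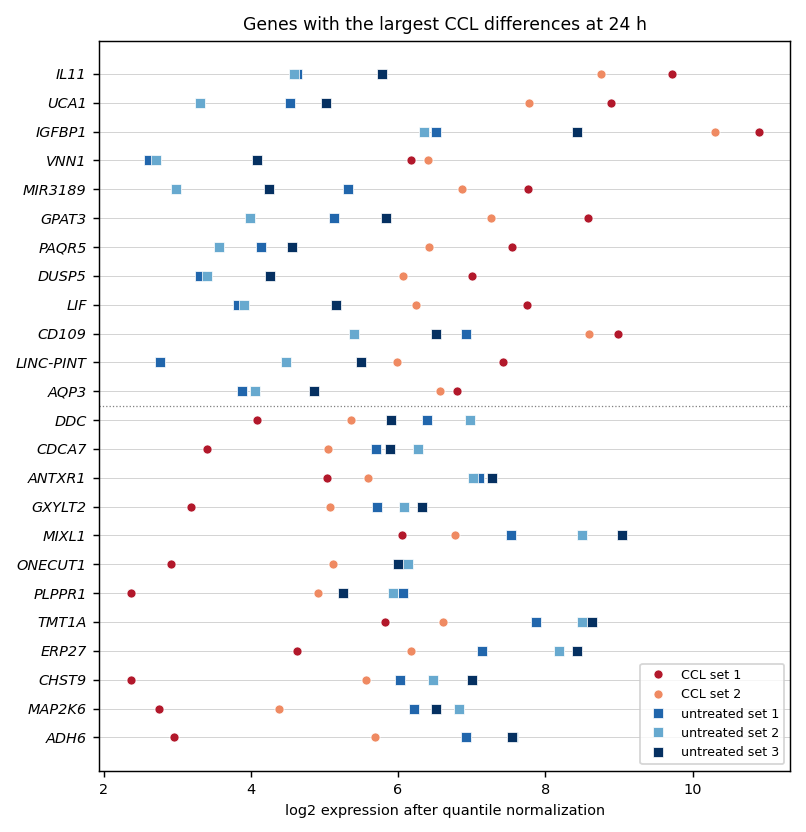
Log2 expression after quantile normalization (horizontal axis) of the 12 genes with the greatest rise (above the dotted line) and the 12 with the greatest fall (below it) at 24 h. Circles are the 2 CCL arrays and squares the 3 untreated arrays, 1 mark per array. Circles and squares do not overlap, and CCL set 1 is the outer circle for every gene but VNN1.

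Some genes linked to mesenchymal cell states rose. SNAI2, encoding a repressor of epithelial genes, lay at 6.36 and 6.45 with CCL and at 3.45, 4.62 and 4.42 without (2.25 ± 0.31, adjusted p = 0.000132). SNAI1 (1.16) and the adhesion gene L1CAM (1.13) also rose, making 3 of 8 TGF-beta and epithelial-mesenchymal genes, none lower. SNAI1, SNAI2 and the uncalled SMAD6 passed the filter through CCL arrays, and 1 of the other 5 rose. AXL, encoding a receptor tyrosine kinase and listed among the YAP targets, lay at 7.13 and 7.15 against 4.94, 4.61 and 5.29, nearly the same on both CCL arrays. MYOF rose by 1.43, and 9 of the 11 YAP targets tested were not called. Among these, CCN2 lay at 6.58 and 8.01 against 8.09, 8.73 and 8.96. CD109, encoding a membrane protein that binds TGF-beta, lay at 8.98 and 8.60 against 6.93, 5.40 and 6.51, although a dimmer probe set gave -0.10. JAG1, encoding a Notch ligand, lay at 10.22 and 10.18 against 8.41, 8.14 and 9.10. Other members of the WNT and Notch list fell, namely FZD4, encoding a WNT receptor (-1.37), DKK4, encoding a WNT inhibitor (-1.24), and LGR5, encoding a receptor that enhances WNT signals (-0.78). DKK4 was low, at 3.20 and 3.08 against 3.66, 4.24 and 5.24, and its call was lost without untreated set 3. The LGR5 call was lost on the deposited and the median-centred values. Of 16 cell junction and keratin genes, CLDN1 (-0.96) and PKP2 (-0.94) fell, and both calls were lost on the deposited values. CLDN1 differed from the untreated mean by -1.595 on CCL set 1 and -0.315 on set 2. KRT19, a marker of bile duct cells, changed by 0.09 and was not called.

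Lipid genes moved in both directions. GPAT3, encoding an enzyme of triglyceride synthesis, lay at 8.59 and 7.27 with CCL and at 5.13, 3.99 and 5.84 without (2.94 ± 0.42). PLIN2, encoding a coat protein of lipid droplets, lay at 8.11 and 6.08 against 5.69, 4.65 and 5.08. LPIN2, encoding a phosphatidate phosphatase, rose by 1.04, while DGAT2, encoding the enzyme of the last step of triglyceride synthesis, fell by 0.69. The other 16 of 20 fatty acid and triglyceride genes were not called. VNN1, encoding the pantetheinase vanin 1 and known as a PPARA target in liver, lay at 6.18 and 6.41 against 2.62, 2.71 and 4.08, a change of 3.16 ± 0.52 (adjusted p = 0.000582). HADH (-0.63) and ACSL1 (-0.80), of fatty acid oxidation and activation, fell. The difference of HADH from the untreated mean was -0.81 on CCL set 1 and -0.44 on set 2, and that of ACSL1 was -1.36 and -0.23. Both calls were lost on the deposited values. PC, encoding pyruvate carboxylase, lay at 7.41 and 6.29 against 5.02, 5.53 and 5.65.

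Most cholesterol genes lay lower on both CCL arrays. Of 16 tested, ACAT2, MSMO1, HMGCS1, SQLE and IDI1 fell and none rose, with a median of -0.71. The list's median was -0.81 on CCL set 1 and -0.56 on set 2, and 13 and 11 members lay below all untreated arrays, against 32.9% and 18.5% of all genes. HMGCS1, encoding the enzyme that makes HMG-CoA, lay at 6.09 and 7.11 with CCL and at 7.40, 8.23 and 7.70 without. ACAT2, encoding cytosolic acetoacetyl-CoA thiolase, lay at 6.83 and 7.56 against 8.17, 8.85 and 8.37. MSMO1, encoding a sterol methyl oxidase, lay at 7.57 and 8.22 against 8.72, 9.16 and 9.42. For all 3 untreated set 2 or 3 was highest and set 1 lowest. None of these 5 genes was called on the deposited values or without CCL set 1, and 6 of the 16 were called lower without set 2. Of the 14 members whose promoter was at hand, 78.6% held a CCAAT box as in the MSMO1 promoter printed above, against 35.9% of 5140 tested genes and 33% of all 27305 promoters. The box was nearly as frequent in other lists, in 71.4% of the 42 G2 and M phase promoters and 69.2% of the 26 of G1/S and DNA replication. Of the 133 promoters of genes called lower, 47.4% held it. A match to a motif is a description of the letters and not a site.

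Several liver transcription factor genes fell. ONECUT1, a hepatocyte transcription factor also called HNF6, lay at 2.92 and 5.12 with CCL and at 6.02, 6.13 and 6.00 without, a change of -2.03 ± 0.44 (adjusted p = 0.00559). The untreated arrays were close together, while the CCL arrays were 2.20 apart. On CCL set 1 ONECUT1 lay near 2.85, the median of that array over all probe sets after quantile normalization. FOXA1, a pioneer factor of liver enhancers, lay at 4.74 and 5.79 against 6.82, 6.75 and 6.52, and FOXA2 at 5.94 and 6.54 against 7.15, 7.26 and 6.96. GATA6 lay at 3.79 and 5.48 against 6.32, 6.34 and 5.61. These were 4 of 11 liver transcription factors tested, and none rose. The list did not move 1 way, as 4 of the 11 changes were positive. On both CCL arrays, 3 of the 11 lay above all untreated arrays and 4 below, against 15.6% and 12.2% of all genes. The median of the list was -0.05, near that of all genes. None of the 4 was called without CCL set 1, and all 4 were without set 2.

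ADH6, an alcohol dehydrogenase gene of liver, had the greatest fall of all, from 6.93, 7.56 and 7.55 to 2.96 and 5.69. After quantile normalization the median over all probe sets of CCL set 1 was 2.85. ADH6, and MAP2K6 and CHST9 below, lay near or under it on that array. ADH6 differed from the untreated mean by -4.39 on CCL set 1 and -1.66 on set 2. Its change was -3.02 ± 0.50 (adjusted p = 0.000582), or 8.12-fold lower, and -1.66 without CCL set 1 (adjusted p = 0.101). FMO5, encoding a flavin monooxygenase, lay at 3.64 and 5.95 against 6.28, 6.62 and 6.26. With GSTA4 (-1.28), these made 3 of 8 genes of drug, bile acid and alcohol metabolism lower, and none higher. MAP2K6, encoding a kinase that activates p38, lay at 2.75 and 4.38 against 6.22, 6.83 and 6.51, a change of -2.95 ± 0.51 (adjusted p = 0.000881). Without CCL set 1 it was -2.14 (adjusted p = 0.109). CHST9, encoding a sulfotransferase, lay at 2.37 and 5.56 against 6.03, 6.47 and 7.01, the greatest gap between the CCL arrays among called genes that fell. UCN2, encoding the peptide urocortin 2, showed the greatest such gap among genes that rose, at 6.31 and 3.11 against 2.81, 2.53 and 2.87. Its rise was thus mostly that of CCL set 1, 3.57 above the untreated mean against 0.38 on set 2. The UCN2 call was lost on the deposited values and with no filter on low values.

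Among hepatocyte secreted proteins, 4 of 23 genes tested fell and none rose. The fibrinogen genes FGG, at 8.20 and 9.44 with CCL against 10.12, 10.40 and 10.40, and FGA, at 9.02 and 9.88 against 10.06, 10.78 and 10.57, were among them. TTR, encoding transthyretin, lay at 8.47 and 8.02 against 8.72, 9.36 and 9.24, and F7, encoding coagulation factor VII, at 4.60 and 4.90 against 5.52, 5.51 and 5.26. ALB (0.01) and AFP (-0.34) were not called. None of the 4 was called without CCL set 1, and 1 was on the deposited values. Of 16 acute phase and complement genes FGA and FGG were the 2 called. Of 12 genes of amino acid catabolism, GLDC (-1.03) and AMT (-1.07), both of the glycine cleavage system, fell and HPD (0.53), of tyrosine breakdown, rose. GLDC, AMT and HPD were not called on the deposited values.

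**Figure D3:**
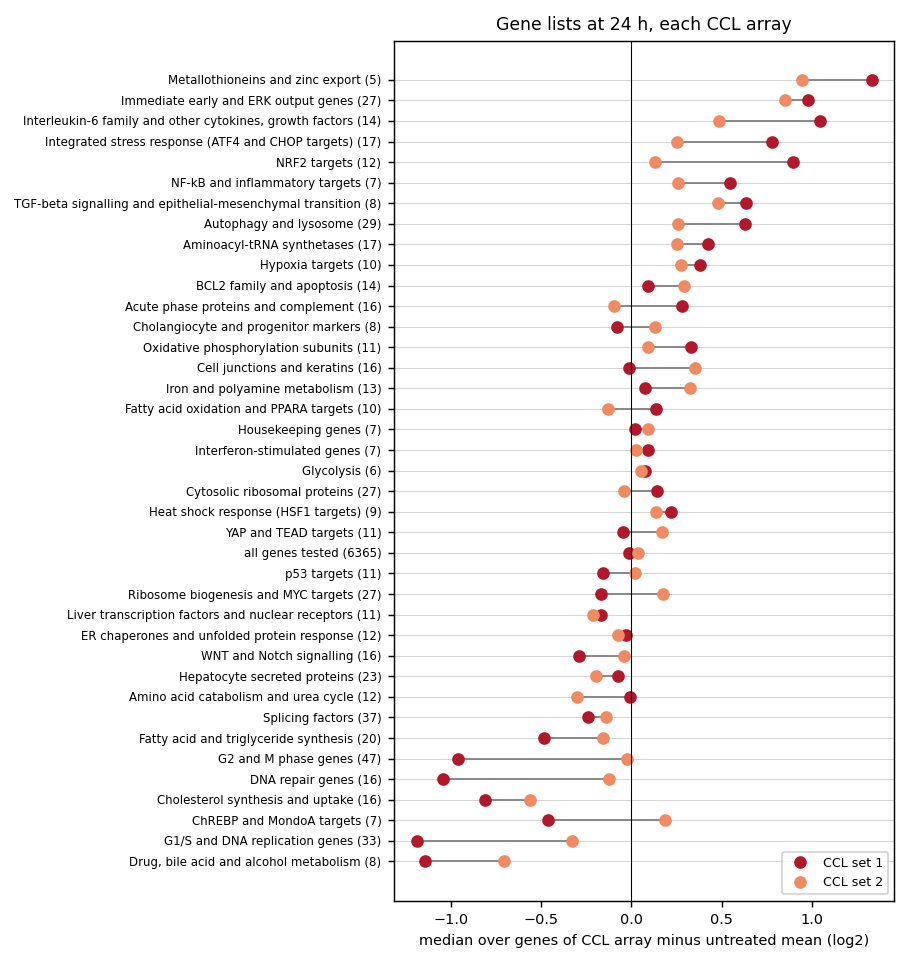
Median over the tested members of each gene list of CCL array minus untreated mean (log2, horizontal axis), for CCL set 1 (dark circles) and CCL set 2 (light circles), with the number of genes tested in parentheses and lists of at least 5 tested genes shown. Immediate early genes (0.98 and 0.85) have nearly equal medians, while G2 and M phase genes (-0.96 and -0.03) are apart.

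Of the lists with at least 5 tested genes, those of the cell cycle and DNA repair had the widest gaps between the medians of the CCL arrays. Of 33 genes of G1/S and DNA replication tested, 7 fell and none rose, among them E2F7 and E2F8, encoding repressors within the E2F family, GINS2 and MCM6, encoding parts of the replicative helicase, and PCNA, encoding the sliding clamp. MCM6 lay at 5.17 and 5.86 with CCL and at 6.74, 6.68 and 6.46 without, and E2F7 at 3.64 and 5.33 against 5.65, 5.69 and 5.99. The list's median was -1.19 on CCL set 1 and -0.33 on set 2, and 30 and 22 of the 33 lay below all untreated arrays, against 32.9% and 18.5% of all genes. None was called without CCL set 1 or on the deposited values, and without set 2 the count was 16. E2F motifs (TTNNCGC on either strand) were in 61.5% of the 26 promoters of this list at hand, against 35.1% of those of tested genes.

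Of 47 G2 and M phase genes tested, 2 fell, and none rose. KIF11, encoding a kinesin of the mitotic spindle, lay at 6.05 and 8.11 with CCL and at 8.57, 8.50 and 8.51 without, and NUSAP1, encoding a spindle-associated protein, at 6.95 and 7.98 against 8.77, 8.29 and 8.26. On CCL set 1, 43 of the 47 lay below all untreated arrays, against 32.9% of all genes. On CCL set 2, 14 lay below and 12 above, against 18.5% and 24.8%. The list's median difference was -0.96 on set 1 and -0.03 on set 2, so that the median of -0.53 describes neither array. Against the untreated array of the same set, the medians were -1.09 and 0.00. Without CCL set 2, 21 members were called lower and 1 higher, and none was called without set 1 or on the deposited values. MKI67, a marker of cycling cells, lay at 8.18 and 8.71 against 8.72, 8.90 and 9.01 and was not called, nor was CCND1 (-0.22). Of 16 DNA repair genes, EXO1 (-1.23) was the 1 called, with list medians of -1.05 and -0.12. With 1 array on each side, the difference between the CCL arrays could not be tested.

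**Figure D4:**
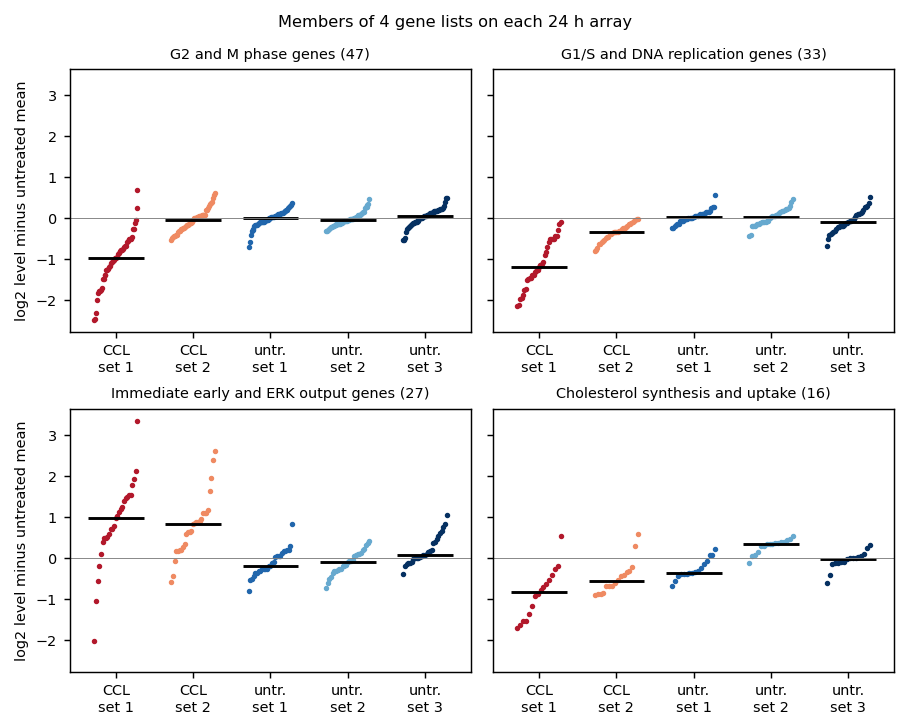
Level of each tested member of 4 lists on each 24 h array, as log2 minus the mean of the 3 untreated arrays (vertical axis). Points are genes in order of value within an array, and black bars are medians. G2 and M phase genes on CCL set 2 lie with the untreated arrays (median -0.03), whereas immediate early genes are raised on both CCL arrays.

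The CHR element was in 20 of the 42 G2 and M phase promoters at hand (47.6%), against 8.68% of tested genes and 13.6% of all promoters, as in KIF11 above. The 20 genes with the element had medians of -0.73 on CCL set 1 and 0.04 on set 2, and the 22 without it -1.12 and -0.17. The greater difference between arrays was thus present in genes with and without these letters. The AP-1 element of the IL11 promoter was in 5.65% of the 230 promoters of genes called higher, against 3.04% of tested genes and 6.6% of all promoters. It was in none of the 18 promoters of the immediate early list. Metal response elements, as in MT2A above, were in 33.5% of the promoters of genes called higher, against 34.4% of tested genes.

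No member was called among 27 ribosome biogenesis genes, 27 cytosolic ribosomal proteins, 11 subunits of oxidative phosphorylation, 6 genes of glycolysis and 7 housekeeping genes, whose medians lay between -0.03 and 0.12. Without CCL set 2, 3 ribosomal protein genes, 2 oxidative phosphorylation genes and 1 housekeeping gene were called higher and 1 ribosome biogenesis gene lower. Of 37 splicing factors TRA2B (-0.87) was called, and of 7 interferon-stimulated genes IFI35 (-0.90). Some other small lists held 1 to 3 calls, against 7.21% of all genes tested, too few to read as a rate. Of 14 genes of the BCL2 family and apoptosis, MCL1 (0.87), which protects cells, and BAK1 (1.11) and BMF (1.17), which promote cell death, rose. None of these 3 was called without CCL set 1, and a dimmer BMF probe set gave 0.16. Of 13 iron and polyamine genes, SAT1, encoding the enzyme that acetylates polyamines, rose from 7.31, 7.19 and 7.78 to 8.73 and 8.79, and SMOX, encoding spermine oxidase, by 1.34. Of 7 genes of the glucose-sensing factors ChREBP and MondoA, KHK, encoding fructokinase, fell by 1.05. By class, 441 of the 459 called genes code for proteins, as do 5998 of the 6365 genes tested. Of 123 long non-coding RNAs tested, 4 rose and 4 fell, and of 93 transcribed pseudogenes 7 and 2 did so. Of all genes tested, 4.62% rose and 2.59% fell, so these counts are not read as results about a class.

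The CCL effect at 24 h was set against that at 18 h and at 48 h, each with its own untreated arrays. Of all genes tested, 237 (3.72%) had an unadjusted p under 0.05 for 24 h against 18 h. No gene differed between 24 h and 18 h by limma after adjustment (lowest adjusted p = 0.998, 0% of genes). Without CCL 24 h set 2, 7 genes did. Between 24 h and 48 h 1 gene differed (0.0157%), F7, which fell at 24 h (-0.69 ± 0.19) and changed by 0.83 at 48 h, a difference of -1.52 ± 0.26 (adjusted p = 0.0426). This call was lost on the deposited values and when any of CCL set 1 or untreated sets 1 and 2 was left out, and 21 genes were called without CCL set 2. From the mean of the other 4 times no gene differed (0%), 362 genes (5.69%) having an unadjusted p under 0.05. Without CCL set 2 the count was 67, 18 higher and 49 lower, and without untreated set 3 it was 1. A p that misses the threshold does not show that the responses were alike.

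Calls were shared in part. At 18 h 222 genes were called higher (3.49%) and 118 lower (1.85%), together 5.34%. Of these, 138 and 55 were called at 24 h too, which is 62.2% and 46.6% of the 18 h calls and 46.9% and 33.3% of the 24 h calls. At 48 h 331 were called higher (5.2%) and 468 lower (7.35%), together 12.6%. Of these, 155 and 59 were shared with 24 h, which is 46.8% and 12.6% of the 48 h calls and 52.7% and 35.8% of the 24 h calls. Signs were shared more widely, as 292 of the 294 genes called higher at 24 h were positive at 18 h and 276 at 48 h, and 162 and 150 of the 165 called lower were negative. IL11 changed by 2.69, 3.06, 3.20, 4.24 and 2.94 at 6, 12, 18, 24 and 48 h. UCA1 changed by 1.28, 2.87, 3.34, 4.05 and 3.46. ADH6 changed by -0.15, -1.05, -1.76, -3.02 and -1.38, and MAP2K6 by -0.13, -2.38, -3.26, -2.95 and -2.14. None of these genes differed between 24 h and 18 h or 48 h.

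**Figure D5:**
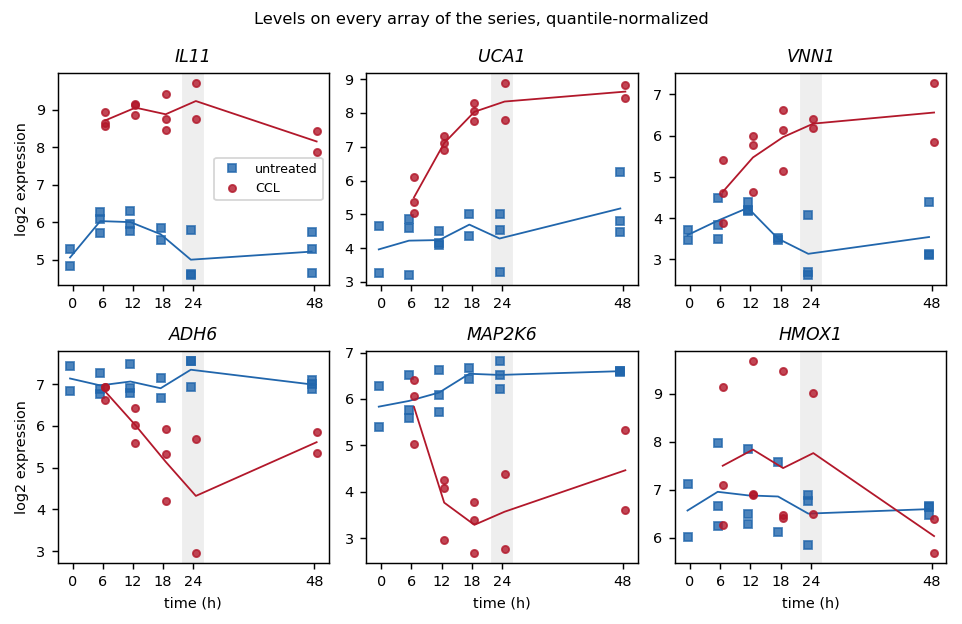
Log2 expression (vertical axis) of 6 genes against time in hours (horizontal axis) on all 29 arrays, with CCL arrays as red circles, untreated arrays as blue squares and lines through the group means; 24 h is shaded. ADH6 and MAP2K6 start level with untreated cells at 6 h and lie apart at 24 h, and HMOX1 splits into 1 high and 1 low CCL array at 24 h (9.02 and 6.50).

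The gap between the CCL arrays of 24 h was seen at 48 h too, where sets 1 and 2 are again the CCL arrays. The G1/S median there was -1.82 on set 1 and -0.43 on set 2, and the G2 and M median -1.74 and -0.57. At 18 h, by contrast, CCL sets 1, 2 and 3 had G1/S medians of -0.52, -0.38 and -0.79 and G2 and M medians of -0.26, -0.17 and -0.71. HMOX1 lay at 9.15, 9.68 and 9.48 on the set 3 CCL arrays of 6, 12 and 18 h, and between 6.26 and 7.09 on the CCL arrays of sets 1 and 2 at those times. At 24 h the array labelled set 1 lay at 9.02, and at 48 h sets 1 and 2 lay at 5.68 and 6.38. Among CCL arrays, the high HMOX1 level was thus on a set 3 array at each of 3 times and on the array labelled set 1 at 24 h. TXNIP was lowest on set 3 among CCL arrays at 6, 12 and 18 h (4.33, 4.76 and 5.18) and on set 1 at 24 h and 48 h (3.78 and 2.91). Set 3 also had the highest HMOX1 and the lowest TXNIP among untreated arrays at every time. Untreated HMOX1 at 6, 12 and 18 h lay at 7.96, 7.85 and 7.59 on set 3, and between 6.13 and 6.66 on sets 1 and 2.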

How the data were processed

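Total RNA of 29 HepG2 samples was hybridized to Affymetrix HuGene 2.0 ST arrays. The deposited log2 values per probe set come from RMA in Affymetrix Expression Console 1.1 as the authors ran it, per the submitters' processing notes. All arrays were quantile-normalized over 53617 probe sets, since array medians differed. The probe table names 16098 probe sets, each with 1 symbol, and RefSeq (GRCh38.p14) holds the gene ID of every one. The other 37519 were left out of the report. The probe set with the highest mean stood for each of 779 genes with several.

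The model held a mean for each of 11 groups and used all 29 arrays (lmFit and eBayes of limma 3.58.1, R 4.3.3), with 18 residual and 5.77 prior degrees of freedom. Tests were two-sided, with Benjamini-Hochberg adjustment over 6365 genes and a threshold of 0.05. Residuals of same-numbered arrays of both arms correlated at -0.0801 to 0.46 over 12 pairs, at 0.224 (set 1) and 0.0692 (set 2) at 24 h. They exceeded 0.1 in 9 of the 12, not in all, and the labels do not say what a set is, so the set number was not taken as pairing. Alternatives were the deposited and median-centred values, no filter and a filter at log2 6, the mean of probe sets, set as a block, array weights, the 5 arrays alone and each array left out.

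Of 1244 genes on 43 lists, 720 had a named probe set and 572 were tested. Replication-dependent histones had none and solute carriers 1, SLC25A15 (-0.49, not called). The comparison, the members and the lists were chosen with earlier results of these data known. Lists were described by counts and medians, with no test. Named were the 12 called genes with the greatest change in each direction whose arms do not overlap, up to 4 called genes per list and direction (or 3 uncalled ones), called differences between times, the 5 greatest gaps between CCL arrays in each direction and a fixed list. The genes PPARG, IL6R, SFN, REEP6, CSF1, JUN, KLF6, CCN2, PCNA and IDI1 were named outside this rule.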

Additional observations from a re-analysis of the deposited data

Results flagged for a closer look

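F7, encoding coagulation factor VII, differed in its CCL effect between times, by -1.52 on the log2 scale for 24 h minus 48 h (adjusted p = 0.0426 by limma, SE 0.26). It lay at 4.60 and 4.90 on the CCL arrays of 24 h, below all 3 untreated arrays. At 6, 12 and 18 h its changes were 0.14, -0.11 and 0.14.

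Among probe sets with no gene symbol, which the report does not use, 7490 lay above log2 5 on at least 2 arrays, and 148 of them were called at 24 h, 104 higher and 44 lower. The greatest difference among these was 5.33 on the log2 scale.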

How the results depend on the processing

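The count of 459 called genes at 24 h became 197 on the deposited values, 853 with set as a fixed replicate block, 206 with array weights and 11 with the 5 arrays alone. Leaving out 1 array gave 30 to 1000, namely 30 without CCL set 1, 1000 without CCL set 2 and 277 without untreated set 2. Set as a random replicate block gave 684. For 24 h minus 18 h, 0 genes were called by each alternative but 1, with 0 to 7 when an array was left out. For 24 h minus 48 h, the 1 call became 0 on deposited values, 0 after median-centring, 0 with no filter and 0 with array weights, and 0 to 21 when an array was left out (2 without untreated set 3). Against the other 4 times, leaving out 1 array gave 0 to 67. Leaving out untreated 18 h set 1 or CCL 18 h set 3, chosen after seeing the data, gave 0 for both differences that use 18 h. The cause of these shifts was not tested. Of 127 named genes 100 were called, and AXL, GDF15, IL11, PAQR5, UCA1 and VNN1 kept the call in every alternative run. PAQR5 and VNN1 were above log2 5 on no untreated array and passed the filter through CCL arrays. Without CCL set 1, 86 of the 100 lost it, with the 5 arrays alone 90, on deposited values 42, with array weights 38 and without CCL set 2 6. Genes that changed sign were uncalled with all arrays. Over the left-out arrays, ALB ran from -0.11 to 0.14 (-0.04 without untreated set 1), HMOX1 from -0.00 to 2.52, KRT19 from -0.25 to 0.43, PGAM1 from -0.95 to 0.10, PPIA from -0.57 to 0.16 (0.09 without untreated set 3), RPL8 from -0.04 to 1.01 and TXNIP from -2.39 to 0.18. For KRT19 the fixed replicate block gave -0.034.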
